A study of Mus musculus with 4 samples.

Results

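The feedback genes of cytokine signalling described here are 7 of the 8 genes of the SOCS family (Cish, Socs1, Socs2, Socs3, Socs4, Socs5 and Socs6) and the PIM kinases (Pim1, Pim2 and Pim3). They were chosen by name, and all 10 were found among the 24418 genes listed. The remaining family gene, Socs7, is not among the 10 and was kept with other inhibitors of JAK-STAT signalling. Their RNA was measured in regulatory T (Treg) cells, the Foxp3-expressing CD4 T cells that restrain immune responses. Treg cells were sorted from spleens and lymph nodes of Foxp3yfpCre mice aged 8 to 12 weeks, in which the Foxp3 locus drives a yellow fluorescent protein fused to Cre. All 4 samples carried this allele. They were held for 3 h with 100 ng/mL TSLP (thymic stromal lymphopoietin, an epithelial cytokine) or with PBS, 2 samples in each group, so that the comparison asks what TSLP changed within this time. The libraries, named PBS 1, PBS 2, TSLP 1 and TSLP 2, held 11328132, 10724392, 11761234 and 10271571 reads on genes. The labels say neither whether the samples came from separate mice nor what the number marks, and the p-values below measure only the spread between these samples. PBS 1 stood apart from the other libraries, as described below, and the fold changes of the SOCS and PIM genes and the medians of the related lists are also given without it.

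TSLP binds a receptor made of Crlf2 and Il7r, and the attached JAK kinases activate the transcription factor STAT5. STAT5 in turn switches on genes that hold the signal back or carry it on. SOCS proteins bind activated receptors or JAK kinases through an SH2 domain and, through the SOCS box, bring a ubiquitin ligase that marks the bound proteins for degradation. PIM proteins are serine/threonine kinases that are active once made, so that their activity follows their amount, and they promote survival and growth. In Treg cells, Socs1 is known for protecting the cells against inflammatory cytokines, and STAT5 downstream of the IL-2 receptor induces Cish.

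The STAT motif TTCNNNGAA, which reads the same on both strands, was looked for in the RefSeq promoter windows of the genes, from 250 bases before to 50 after each start (build GRCm38.p6). Windows were matched for 7 of the 10 genes, namely Cish, Socs1, Socs3, Socs4, Pim1, Pim2 and Pim3. The motif lay in those of 2 genes, Cish and Socs3, and these stretches are shown because both genes are textbook STAT targets and are among the most abundant members below. The capitals mark the fixed letters of the motif, and both stretches are written 5′ to 3′ on the strand of the gene.
Cish, chr9:107296654-107296683, plus strand: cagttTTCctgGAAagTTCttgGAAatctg
Socs3, chr11:117969501-117969530, minus strand: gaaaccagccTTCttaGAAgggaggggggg
Counted from 1 at the RefSeq start, the 2 motifs of Cish began at positions 1 and 12, and the motif of Socs3 at -154. In the GENCODE M21 annotation of the same build, Cish and Socs3 both begin further upstream than these RefSeq starts. Each stretch therefore lies within the annotated span of its gene. The motif was found in 8.3% of all 32851 promoter windows, and at least 2 copies in 0.457%. A match describes the letters and was not tested for binding here.

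The genes were read at very different levels. Per kilobase of exon, with reads scaled to 1000000 on genes (cpm), Pim1 stood first at 277 ± 49.6 (mean ± SD over the 4 libraries, as for the other levels here), above 99.2% of the 10944 genes tested that had an exon length. Socs3, which binds gp130-type receptors and inhibits their JAK kinases, followed at 71.3 ± 16.1. Cish, which binds IL-2 receptor family chains, was at 48.4 ± 9.99, and Pim3 was at 47.6 ± 13.3. The ranges of Socs3 and Cish overlapped across libraries, although Socs3 was above Cish within each of the 4. Cish and Pim3 overlapped too, and which of them was higher changed from library to library. Pim1 did not overlap Socs3, with 219 as its lowest library against 86.9 as the highest of Socs3. The place of Cish depends on the length used, since its merged exons, of 6419 bases, cover most of the span of the gene. With its longest transcript, of 4697 bases, Cish was at 66.2. Before division by length, Cish was above Socs3 in every library, at 253 to 385 cpm against 162 to 251 cpm.

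Socs1, a direct inhibitor of JAK kinase activity, came next at 22.7 ± 6.37, and Pim2 at 13.5 ± 4.04. The other 4 of the chosen SOCS genes lay near or below the median of the genes tested, which was 6.98. Socs4 was at 7.02 ± 2.03, Socs5 at 6.48 ± 1.32 and Socs2, known for restraining growth hormone signalling, at 3.84 ± 1.61, with neighbours overlapping. Socs6 was lowest at 1.66 ± 0.0921, below the lowest library of Socs2 (2.77). With the length of the longest transcript in place of all exons, the first 6 genes kept this order, but Socs5 (8.94) and Socs2 (8.62) then stood above Socs4 (7.02). Socs6 was then at 3.11 and still lowest.

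**Figure D1:**
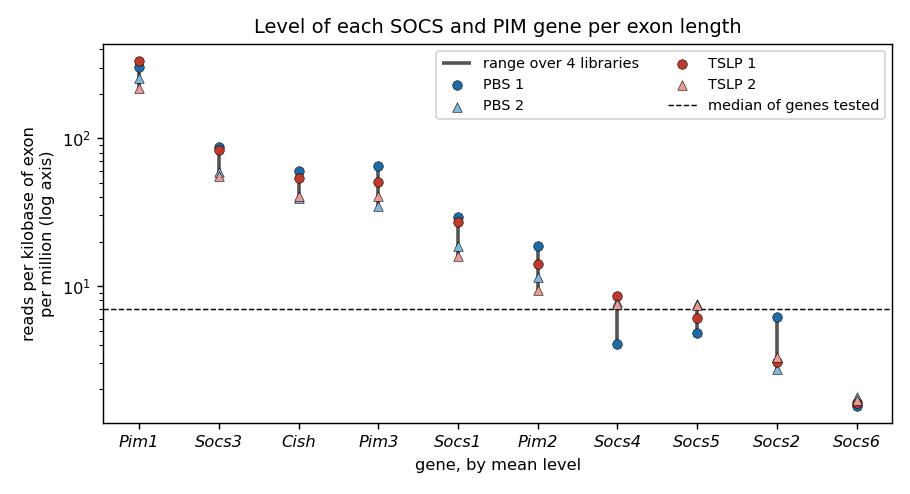
Reads per kilobase of exon per 1000000 reads on genes (log axis) for each of the 10 genes, ordered by mean level. Points are the 4 libraries, the vertical line is their range and the dashed line is the median of the genes tested, 6.98, with Pim1 far above the others and Socs6 lowest.

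Within each family a few genes carried most of the RNA. Of the summed PIM level per exon length, Pim1 held 78.3% to 84.7% over the 4 libraries, Pim3 11.5% to 16.9% and Pim2 3.48% to 4.87%. Of the summed level per exon length of the 8 SOCS genes, Socs7 included, Socs3 held 39.03% to 43.1%, Cish 26.2% to 29.7% and Socs1 11.1% to 14.5%. These shares depend on the lengths used, and a shorter length for Cish would raise its share. Socs7 itself, at 12.2 ± 3.18, held 4.42% to 9.12%. Socs2, Socs4, Socs5 and Socs6 each held at most 5.33%. With these lengths, the order of the 3 leading SOCS genes was the same in PBS- and TSLP-stimulated Treg cells.

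None of the 10 genes was called between TSLP- and PBS-stimulated Treg cells. By limma on log2(normalized count + 1) with Benjamini-Hochberg adjustment over 11392 genes, the adjusted p was 0.99987 for 9 of the 10 and 0.99998 for Socs6, and the smallest unadjusted p was 0.156, for Socs4. Across all genes, 0% were called at an adjusted p under 0.05 and 1.69% (192 genes) had an unadjusted p under 0.05, against 0 of the 10. edgeR and DESeq2 on the recovered reads also called 0 genes by adjusted p, while 234 and 286 genes had an unadjusted p under 0.05, again with 0 of the 10 among them. The ranges of the TSLP and PBS groups overlapped for every one of the 10 genes, where 28.9% of all genes tested did not overlap (14.5% with TSLP above and 14.4% with TSLP below). All 10 genes passed the filter on low values. In bulk RNA, fewer cells of a type and less RNA per cell cannot be told apart.

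Among the genes most directly induced by STAT factors, Cish had normalized counts (reads divided by the library's size factor) of 4223 (PBS 1), 2719 (PBS 2), 3813 (TSLP 1) and 2799.7 (TSLP 2). Both groups thus held a high and a low library, and the group means were 3471 ± 1063 with PBS and 3306 ± 716 with TSLP (SD, n = 2). The log2 fold change, TSLP against PBS, was -0.05 (SE 0.276), with a 95% interval of -0.68 to 0.57, or 0.626- to 1.49-fold.

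Socs3 was at 2758 (PBS 1), 1827 (PBS 2), 2672 (TSLP 1) and 1734 (TSLP 2), the same alternation of a high and a low library. Its log2 fold change was -0.06 (SE 0.290, interval -0.72 to 0.59). Socs1 was at 929.5 (PBS 1), 586 (PBS 2), 872 (TSLP 1) and 496 (TSLP 2). Again the libraries numbered 1 were high and those numbered 2 low, and the log2 fold change was -0.17 (SE 0.344, interval -0.94 to 0.61).

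Socs2 behaved otherwise, with 651 in PBS 1 against 283 in PBS 2, 322 in TSLP 1 and 338 in TSLP 2. A single high library, PBS 1, stood apart from 3 similar ones. The log2 fold change of -0.38 (SE 0.403, interval -1.29 to 0.53) took its sign from that library, since without PBS 1 the value was 0.22.

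Socs4 and Socs5 are less studied members of the family, both described as regulators of epidermal growth factor receptor signalling. Socs4 was at 305 (PBS 1), 577 (PBS 2), 657 (TSLP 1) and 561 (TSLP 2). Here PBS 1 was the low library and the other 3 lay close together. Its log2 fold change of 0.53 (SE 0.343, interval -0.25 to 1.31, or 0.844- to 2.47-fold) was the largest in size of the 10 by limma on all 4 libraries, where its upper bound was the only one above a doubling. Socs2 was larger in size than Socs4 by edgeR (-0.50 against 0.46), by DESeq2 (-0.50 against 0.46) and with the trend over exon length removed (-0.51 against 0.47). Without PBS 1, the log2 fold change of Socs4 was 0.07.

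Socs5 was at 337 (PBS 1), 524 (PBS 2), 431 (TSLP 1) and 512 (TSLP 2), with a log2 fold change of 0.16 (SE 0.316, interval -0.55 to 0.87). Socs6, described as an adaptor for the ligase on receptor tyrosine kinases, was at 194, 215, 203 and 206 in the same order. Its 4 libraries were nearly level, and the fold change had an interval of 0.563 to 1.78 around 1-fold.

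Pim1, a classical STAT5 target and the most abundant of the 10, was at 11125 (PBS 1), 9213 (PBS 2), 12347 (TSLP 1) and 7908 (TSLP 2). TSLP 1 was the highest library and TSLP 2 the lowest, so the TSLP group enclosed the PBS group. Its log2 fold change was -0.03 (SE 0.283, interval -0.67 to 0.60).

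Pim2, which is regulated mainly through its transcription, was at 576 (PBS 1), 347 (PBS 2), 440.0 (TSLP 1) and 281 (TSLP 2), with a log2 fold change of -0.35 (SE 0.363, interval -1.17 to 0.48). Pim3 was at 1732 (PBS 1), 904 (PBS 2), 1355 (TSLP 1) and 1052 (TSLP 2). The PBS libraries of Pim3 enclosed the TSLP libraries, and its log2 fold change was -0.07 (SE 0.321, interval -0.79 to 0.66).

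**Figure D2:**
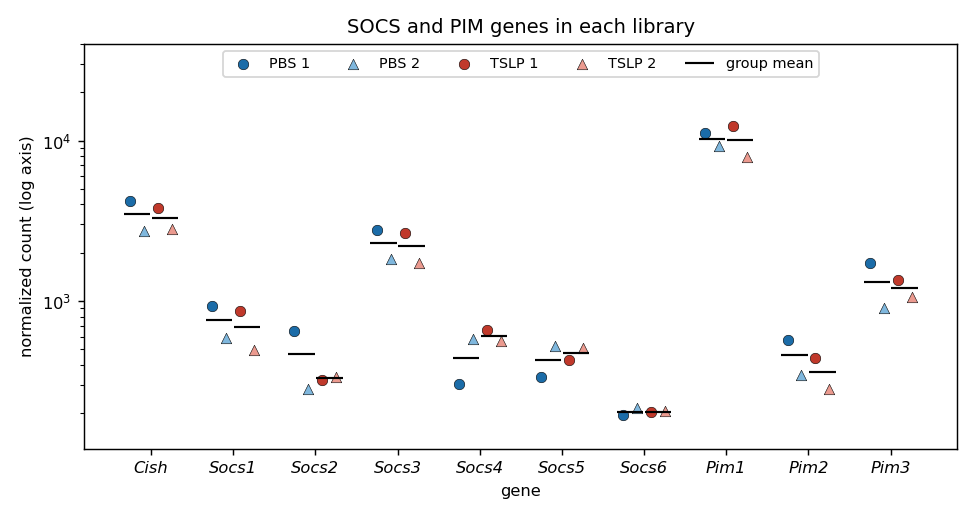
Normalized count (log axis) of each gene in the 4 libraries, with circles for number 1, triangles for number 2 and a bar for each group mean. The groups overlap for all 10 genes, and for Cish, Socs1, Socs3 and the 3 PIM genes the circles lie above the triangles in both groups.

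Over the 10 genes, 3 had a positive and 7 a negative log2 fold change, with a median of -0.06, beside a median of 0.01 over all genes tested. The median size of the log2 fold change, without its sign, was 0.11 for the 10 genes and 0.26 for all genes. The libraries within a group differed by more than that, by a median of 0.65 between the PBS libraries (0.48 over all genes) and 0.40 between the TSLP libraries (0.31 over all genes). The fold change was smaller in size than the difference between the PBS libraries for 10 of the 10 genes, and smaller than that between the TSLP libraries for 8. The same held for 7982 and 6327 of the 11392 genes tested. In the fit of all 4 libraries, the 95% interval lay below a doubling for 9 genes, Socs4 being the exception, and above a halving for 8, the exceptions being Socs2 and Pim2. Over all genes tested, 60.6% had an interval below a doubling and 59.8% above a halving.

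Without PBS 1, the log2 fold changes were 0.26 for Cish, 0.17 for Socs1, 0.22 for Socs2, 0.24 for Socs3, 0.07 for Socs4, -0.16 for Socs5 and -0.075 for Socs6. They were 0.10 for Pim1, 0.019 for Pim2 and 0.40 for Pim3. The median was then 0.13, and 9 of the 10 genes had the other sign, Socs6 from a value of about 0, with Socs4 the exception. None had an unadjusted p under 0.05 by limma, with the lone PBS library assumed to vary like the TSLP libraries.

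Set within each number, the direction varied from gene to gene. TSLP 1 over PBS 1 was positive for 4 of the 10 genes (Socs4, Socs5, Socs6 and Pim1), and TSLP 2 over PBS 2 for 3 (Cish, Socs2 and Pim3), so no gene was higher with TSLP in both. Socs2 gave log2 ratios of -1.01 and 0.25 and Socs4 gave 1.10 and -0.04. Socs1, Socs3 and Pim2 were lower with TSLP in both, with log2 ratios of -0.09 and -0.24 for Socs1, -0.05 and -0.08 for Socs3 and -0.39 and -0.30 for Pim2. The medians over the 10 genes were -0.07 for number 1 and -0.05 for number 2, beside 0.00 for all genes in each. As the labels do not say that the number pairs samples, these ratios are a description.

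**Figure D3:**
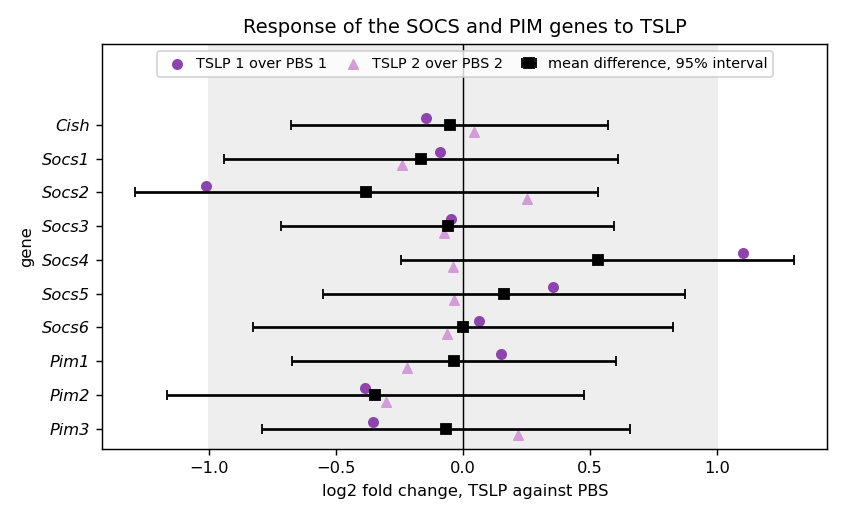
Log2 fold change, TSLP against PBS, of each gene by limma (square) with its 95% interval (bar), and the ratios TSLP 1 over PBS 1 (circle) and TSLP 2 over PBS 2 (triangle). The grey band marks changes of less than 2-fold, and every interval includes 0.

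The difference that did recur in both groups was between the numbers. Cish, Socs1, Socs3, Pim1, Pim2 and Pim3 were higher in both libraries numbered 1 than in both numbered 2, which is 6 of the 10, while 17.2% of all genes tested showed that order. Socs5 and Socs6 showed the reverse order, found for 17.8% of all genes, and Socs2 and Socs4 overlapped. For Cish the log2 difference of number 1 from number 2 was 0.63 with PBS and 0.45 with TSLP. Socs1 gave 0.66 and 0.81, Socs3 gave 0.59 and 0.62, and Pim2 gave 0.73 and 0.64. The median over the 10 genes was 0.61 with PBS and 0.40 with TSLP, beside -0.02 and 0.00 over all genes. This order was seen in the data and has no test.

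The immediate early genes, which rise within minutes to an hour of cell handling or receptor signals, moved in the same way. Of 12 such genes, 9 were higher in both libraries numbered 1, beside 17.2% of all genes tested. The others were Egr1, which was lower, and Egr2 and Egr3, which overlapped. The median log2 differences over the 12 were 0.58 with PBS and 0.44 with TSLP. This list, like the others, was chosen with earlier results of these data known. Junb, an AP-1 subunit, was at 27687 (PBS 1), 14789 (PBS 2), 20314 (TSLP 1) and 13093 (TSLP 2). Fos, named after its values were seen, was at 10585 (PBS 1), 4723 (PBS 2), 7481 (TSLP 1) and 4265 (TSLP 2). These 9 genes shared the order of Cish, Socs1, Socs3 and the PIM genes, and their part in it was not tested.

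**Figure D4:**
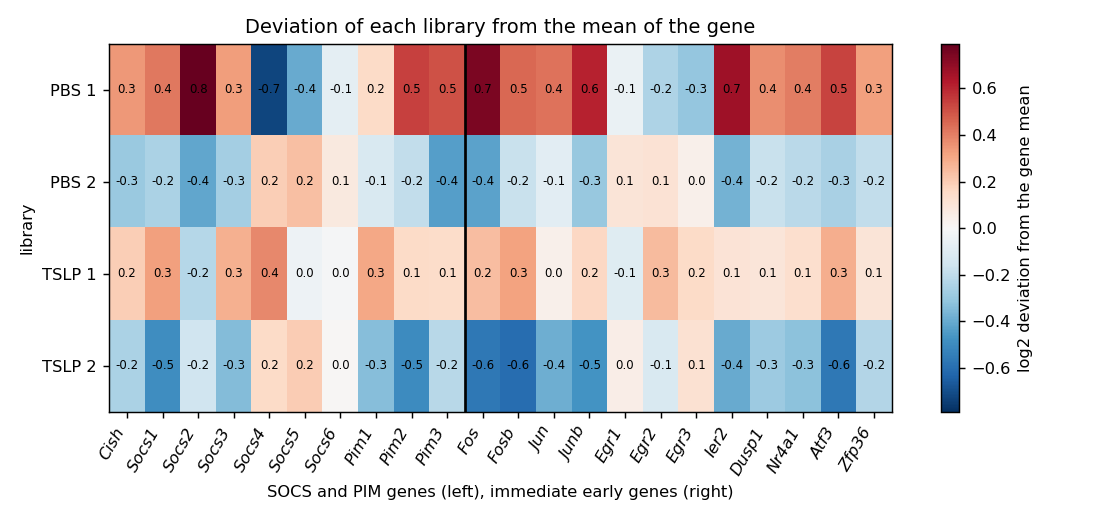
Log2 deviation of each library (rows) from the mean of the gene over the 4 libraries, for the 10 SOCS and PIM genes (left of the line) and 12 immediate early genes (right). Red is above and blue below the gene's mean, and for 6 of the 10 and 9 of the 12 genes PBS 1 and TSLP 1 both lie above PBS 2 and TSLP 2.

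The library PBS 1 stood apart for many genes, the SOCS and PIM genes among them. It was the highest or the lowest of the 4 libraries for 9 of the 10 genes, the exception being Pim1, and for 68.1% of all genes tested. The other libraries were so for 5 of the 10 genes (PBS 2, 45.1% of all genes), 2 (TSLP 1, 41.3%) and 4 (TSLP 2, 45.6%). PBS 1 was highest for Cish, Socs1, Socs2, Socs3, Pim2 and Pim3 and lowest for Socs4, Socs5 and Socs6. PBS 1 also differed with exon length, since its ratio to the other libraries fell with length over the 2679 genes with 1000 or more mean reads. The Spearman rho across these genes, which are no independent replicates, was -0.657 in PBS 1 and 0.565, 0.391 and 0.295 in PBS 2, TSLP 1 and TSLP 2. The 4 genes with the shortest exons (Pim3, Pim2, Socs3 and Socs1, 2427 to 2908 bases) were high in PBS 1, and the longer Socs4, Socs5 and Socs6 were low there. Socs2 and Cish, with 9531 and 6419 bases over all exons, were high there. Their longest transcripts had 4242 and 4697 bases, so their place along the trend depends on the length used. With the trend over exon length removed, Socs4 was at 0.47 and the median of the 10 genes at -0.02, and 0 of the 10 had an unadjusted p under 0.05.

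The sorted cells carried the markers of their label in every library. Foxp3, the defining factor, was at 222 cpm in PBS 1 and 407 to 472 in the other libraries, and Ikzf2 at 568 in PBS 1 and 953 to 996 in the others. Il2ra, Ikzf4, Cd4 and Cd3e were also lowest in PBS 1, while Tnfrsf18 (532 cpm against 348 to 427 in the others) and Ctla4 (1284 against 1142 to 1253) were highest there. The 8 Treg markers summed to 3764 (PBS 1), 4398 (PBS 2), 4299 (TSLP 1) and 4598 (TSLP 2) cpm, with Ctla4 the most abundant. Markers of other cells were few. The 6 myeloid markers summed to 61.5 cpm in PBS 1 and 40.1 to 42.4 in the others, mostly Cst3, with Adgre1 at 0 throughout. Its members went different ways, since Cd68 was at 15.4 (PBS 1), 6.15 (PBS 2), 5.02 (TSLP 1) and 1.56 (TSLP 2) cpm, while Lyz2 was at 0.0883 cpm in PBS 1 and 3.15 to 4.01 in the others. The 4 B cell markers summed to 0.618 cpm in PBS 1 and 5.02 to 10.4 in the others, led by Cd79b. The 2 CD8 T cell markers gave 7.83 to 13.4 cpm, led by Cd8b1. The 3 NK cell markers summed to at most 2.43 cpm, from Klrb1c, with Ncr1 and Klre1 at 0, where 0 reads allow up to 0.255 to 0.292 cpm. The 3 platelet markers summed to at most 4.87 cpm, from Itga2b with Pf4 and Ppbp at 0, and the 3 erythroid markers to at most 0.681 cpm, from Alas2 with Hba-a1 and Hbb-bs at 0. PBS 1 was thus the lowest library for 6 of the 8 Treg markers and the highest for 2, and the part of this in the SOCS and PIM values of that library was not tested.

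By position, the SOCS and PIM genes lie on different chromosomes apart from Socs5 and Pim1, which share chromosome 17 far from each other (GRCm38, the build called mm10, with the GENCODE M21 annotation). Cish spans chr9:107296026-107302784 and Pim1 spans chr17:29490753-29496112, both on the plus strand, and Socs3 spans chr11:117966079-117970047 on the minus strand. The exons of Cish share 479 bases with the antisense gene Gm17041 and 261 with the pseudogene Gm17040, and those of Pim1 share 488 with the antisense gene Gm26885, all on the opposite strand. The kit keeps the strand, but the strand setting of the counting is not given in the sources used here, so reads of these partners may be included in Cish and Pim1.

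The genes most like Cish in their pattern over the 4 libraries were Rpl29, Gch1, Ier5, Rhof and Gla, by the Euclidean distance between log2 deviations from the gene mean. Their distances from Cish were 0.0491 for Rpl29, 0.0564 for Gch1, 0.0569 for Ier5, 0.0587 for Rhof and 0.0621 for Gla, among 4487 genes with a mean normalized count of at least 500. Of the other members with that count, Socs3 was 27th in this order, Pim3 143rd, Socs1 305th and Pim1 323rd. Socs4 was 4258th, with a Pearson r of -0.57 to Cish over the 4 libraries. With 4 libraries such likeness is common, and 200 of these genes had a Pearson r over 0.95 with Cish, given as a description.

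Around the SOCS and PIM genes, the pathway that feeds them was also compared, from lists set by function. Of 16 receptor, JAK and STAT genes, 9 were higher and 7 lower with TSLP, 0 had an unadjusted p under 0.05, and the median log2 fold change was 0.03 (-0.024 without PBS 1, 0.097 without PBS 2, -0.011 without TSLP 1 and 0.083 without TSLP 2). The 2 most abundant were Jak1, at 12097 ± 1317 normalized counts with PBS and 13926 ± 672 with TSLP (SD, n = 2, log2 fold change 0.21, SE 0.247), and Stat3, with a log2 fold change of 0.14 (SE 0.239).

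Of 9 other STAT5 targets, 5 were higher and 4 lower, with a median of 0.09, and 1 had an unadjusted p under 0.05, beside 1.69% of all genes. The median was 0.13 without PBS 1, but -0.16 without PBS 2, -0.035 without TSLP 1 and -0.019 with the trend over exon length removed. The gene with an unadjusted p under 0.05 by limma was Ccnd2, encoding cyclin D2, which drives cells into the cell cycle. It was at 2584 ± 154 with PBS and 3650 ± 127 with TSLP (SD, n = 2), a log2 fold change of 0.50 (SE 0.210), and its adjusted p was 0.9999 by limma with Benjamini-Hochberg adjustment. The unadjusted p of Ccnd2 by limma, fitted across all genes, was 0.0411. By edgeR it was 0.0516, and by DESeq2 0.0272. Osm, which encodes the cytokine oncostatin M and was named after its values were seen, had a log2 fold change of 0.86 (SE 0.542), from 63.4 ± 7.63 to 117 ± 18.4 normalized counts (SD, n = 2). Lta, of the same list and also named after its values were seen, went the other way, at -0.74 (SE 0.392). It was at 307 ± 77.4 normalized counts with PBS and 184 ± 53.8 with TSLP (SD, n = 2).

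Of 12 other inhibitors of JAK-STAT signalling, mainly phosphatases and PIAS proteins but also Socs7, 7 were higher and 5 lower, and 0 had an unadjusted p under 0.05. The median was 0.07, but -0.034 without PBS 1, 0.15 without PBS 2, -0.043 without TSLP 1 and 0.22 without TSLP 2. Ptprc, which encodes the phosphatase CD45, had a log2 fold change of 0.23 (SE 0.269) and Ptpn1 had -0.15 (SE 0.212). Socs7, named for its family and after its values were seen, was at 710.5 (PBS 1), 1073 (PBS 2), 1274 (TSLP 1) and 796 (TSLP 2), with overlapping groups and a log2 fold change of 0.21 (SE 0.309). Of the 6 partners of the SOCS box in the ubiquitin ligase, 1 was higher and 5 lower, again 0 with an unadjusted p under 0.05, and the median of -0.11 became 0.052 without PBS 1 and -0.36 without PBS 2. The most abundant were the cullins Cul2, at -0.13 (SE 0.247), and Cul5, at 0.14 (SE 0.252), the latter being the usual cullin of SOCS ligases. Cul2 was at 1144 (PBS 1), 851 (PBS 2), 910 (TSLP 1) and 895 (TSLP 2), so both TSLP libraries lay between the PBS libraries.

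Of 10 receptors that SOCS proteins restrain, 7 were tested, and Epor, Ghr and Egfr were below the filter. Of these 7, 5 were higher and 2 lower, with a median of 0.10 (0.057 without PBS 1, 0.034 without TSLP 1 and 0.21 without TSLP 2). Ifngr1, a chain of the interferon-gamma receptor, had a log2 fold change of 0.10 (SE 0.257) and Il2rb, which also stands in the first list, 0.08 (SE 0.239). For Ifngr1, TSLP 1 (10469 normalized counts) and TSLP 2 (9779) lay between PBS 2 (8019) and PBS 1 (11172.5). Of 12 PIM substrates, 10 were tested (Cdc25c and Irs1 were below the filter), with 2 higher and 8 lower. Their median was -0.05 (-0.12 without PBS 1, -0.14 without PBS 2, -0.18 without TSLP 1 and 0.083 without TSLP 2). Foxo1, a transcription factor of T cell quiescence, was at -0.05 (SE 0.240) and Cdkn1b, an inhibitor of cell cycle kinases, at 3626 ± 3.41 with PBS and 3626 ± 294 with TSLP (SD, n = 2).

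Of the 12 immediate early genes, 2 were higher and 10 lower with TSLP, with a median of -0.23. This median was 0.11 without PBS 1 and 0.037 without TSLP 2, but -0.55 without PBS 2 and -0.48 without TSLP 1, so its sign depended on which library was left out. Nr4a1, an orphan nuclear receptor read as a sign of T cell receptor signals, had a log2 fold change of -0.19 (SE 0.326) and Junb had -0.31 (SE 0.364). Neither the receptor and substrate lists nor the immediate early genes held a gene with an unadjusted p under 0.05. No member of any list had an adjusted p under 0.05 by limma with Benjamini-Hochberg adjustment, where 0% of all genes had one.

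**Figure D5:**
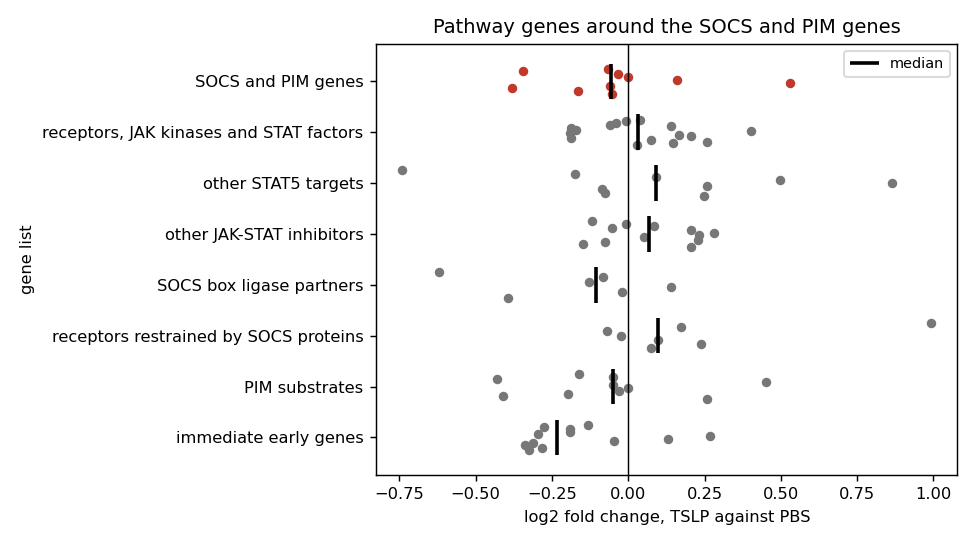
Log2 fold change, TSLP against PBS by limma, of each tested gene (points) in the SOCS and PIM genes (red) and in 7 lists of related genes (grey), with a bar at the median of each list. The medians lie between -0.23 for the immediate early genes and 0.10 for the receptors restrained by SOCS proteins, beside a median of 0.01 over all genes tested.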

How the data were processed

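RNA of sorted Treg cells (PBS or TSLP, 2 samples each) was sequenced as 50-base single-end reads from a directional kit. The authors mapped reads to mm10 with HISAT2, counted them with HTSeq and used DESeq2. The annotation and strand setting are not given in the sources used here. The deposited values are a signal, each read count over the size factor of its library. All 4 columns gave whole reads on division by 1 step (100% of values within 0.01 of a whole number). The table names 27 genes by dates and has 0 rows that name no gene.

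The 11392 genes whose normalized count reached 10 in 2 or more libraries were compared on log2(normalized count + 1) by limma with a trend of the spread over expression and Benjamini-Hochberg adjustment over all of them. This scale understates changes of low genes. edgeR's quasi-likelihood test with TMM and DESeq2 on the recovered reads were alternatives, each calling 0 genes by adjusted p. Other alternatives were TMM or reads-per-million scaling, no filter or a minimum of 50, pseudocounts of 0.5 and 5, replicate blocks, removal of the trend over exon length, and leaving out each library. The members and lists were chosen with earlier results of these data known. All 10 members are named, and from each other list the genes with an unadjusted p under 0.05 or, with none, the 2 with the highest mean normalized count, plus the 5 genes most like Cish. Others are named where stated.

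Levels used the union of exons in GENCODE M21 (GRCm38), in which 23307 names had a length. Elongin genes were matched by their older symbols, Tceb1 and Tceb2. The limit of 3 reads behind a value of 0 covers counting error only, since PCR copies were counted. No library matched another within sampling noise. Versions were 3.58.1 for limma, 4.0.16 for edgeR and 1.42.0 for DESeq2, under R 4.3.3.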

Additional observations from a re-analysis of the deposited data

How the results depend on the processing

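In all 16 alternatives, 0 genes were called at an adjusted p under 0.05 by limma, edgeR or DESeq2. Of 160 values of the SOCS and PIM genes under these alternatives, 25 had the other sign and 2 had an unadjusted p under 0.05. Those 2 arose without PBS 2, where Socs2 was at -0.98 and Socs4 at 0.99, with 0 by adjusted p, so that 0 to 2 of the 10 genes had an unadjusted p under 0.05 when a library was left out. A lone library is then assumed to vary like the other group. The cause of the changes below was not tested.

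Leaving out each library in turn, the log2 fold change ranged from -0.37 to 0.26 for Cish, -0.57 to 0.24 for Socs1, -0.98 to 0.22 for Socs2, -0.37 to 0.25 for Socs3, 0.07 to 0.99 for Socs4, -0.16 to 0.48 for Socs5, -0.075 to 0.075 for Socs6, -0.36 to 0.29 for Pim1, -0.71 to 0.019 for Pim2 and -0.54 to 0.40 for Pim3. The median of the 10 ranged from -0.36 without PBS 2 to 0.14 without TSLP 2. With the trend over exon length removed, Socs3 was at 0.034, Pim1 at 0.025, Pim3 at 0.055 and Socs6 at -0.17. Under other settings Socs6 was at -0.0019 by DESeq2, -0.0020 with TMM scaling, -0.0039 by edgeR, -0.0068 with reads-per-million scaling and -2.7e-05 with a pseudocount of 5.

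The 192 genes with an unadjusted p under 0.05 became 358 with no filter and 427 without the spread trend, a setting chosen after seeing the data, and ranged from 79 without TSLP 2 to 1858 without PBS 2. The 1 pathway gene at that level became 0 by edgeR, with the trend over exon length removed and with either replicate block, and 0 to 7 with a library left out. With the replicate block, Socs6 was at -0.0020 by edgeR and the median of the 10 genes at -0.06 by limma, and 258 (limma) and 215 (edgeR) genes had an unadjusted p under 0.05. Over all 11392 genes, the differences of number 1 from number 2 in the PBS and TSLP groups had an r of 0.00072. The labels do not say that the number pairs samples, so the main fit did not use it as a pairing, and only the block alternatives did. The 10 genes had at least 197 reads in each library.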
